A study of Mus musculus with 16 samples.

Results

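Cytoplasmic ribosomal protein genes were taken from a mouse RNA-seq series as the protein-coding genes whose symbol begins with Rpl or Rps and a digit, together with Rplp0, Rplp1, Rplp2 and Rpsa. Kinases of the Rps6k family, Rps19bp1 and pseudogenes with a -ps symbol were left out. The rule found 85 of the 53801 genes counted, 33 of the small and 52 of the large ribosomal subunit, on 19 chromosomes, and 4 of them are X-linked. The 16 libraries were made from cortex or striatum of 9 mice aged 10 days, of the strain C57BL6/J-129sv, and both genotypes carried the Camk2-Cre transgene. Control mice were Trrap Fl/+; Camk2-Cre tg, that is with 1 floxed allele of Trrap, and Trrap-FBΔ mice were Trrap Fl/Fl; Camk2-Cre tg. Trrap is a scaffold of histone acetyltransferase complexes. Each tissue had 4 control and 4 Trrap-FBΔ libraries. Control cortex came from mice 55, 58, 63 and 64, control striatum from mice 58, 63, 64 and 65, and both Trrap-FBΔ tissues from mice 57, 59, 60 and 61. Cre is driven in excitatory neurons of the forebrain, whereas whole tissue was sequenced, so other cells keep Trrap, and fewer cells of a type cannot be told apart from less RNA per cell.

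Ribosomal proteins surround the ribosomal RNA in every cell that makes protein, and the subunits need them in equal numbers. Their mRNAs are short and abundant, most begin with a run of pyrimidines (the terminal oligopyrimidine or TOP motif) that places their translation under mTOR, and many of their introns carry small nucleolar RNAs (snoRNAs). In mammals most of these genes have a single functional copy and many processed pseudogenes, which are intronless copies of the mRNA elsewhere in the genome. In neurons they are needed for growth of the cell body and for protein synthesis in neurites.

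The libraries held 28743866 to 48761429 counts, so that 3 counts corresponded to 0.0615 to 0.104 CPM, the unit of counts scaled to a common library total that is used throughout. Trrap itself, counted over all its exons, did not pass the test in either tissue. Trrap had 172, 157, 136 and 146 CPM in control cortex and 123, 135, 132 and 147 CPM in Trrap-FBΔ cortex, and the ranges overlapped (exact permutation test, 2-sided, p = 0.11; edgeR adjusted p = 0.083). In the striatum Trrap had 139 to 151 CPM in controls and 136 to 149 CPM in Trrap-FBΔ (exact permutation test p = 0.37; edgeR adjusted p = 0.52). Such a count also covers exons outside the deleted part and the cells without Cre. The smallest p that 4 libraries against 4 allow in this permutation test is 0.029.

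A read of 51 bases could be counted only if it mapped to a single place. For each member, windows of 51 bases were therefore compared with the annotated transcripts of all other genes. Of the 85 members, 81 shared a window with at least 1 of 1016 pseudogenes, and the median member had 8.89% of its coding windows to itself. In 30 members no coding window was unique, and in 15 members at least 50% were. Of the unique windows over all annotated transcripts of the members, 6.48% lay in coding sequence, and the others in further annotated sequence of the gene. For most members, then, a small share of the coding sequence could be counted at all.

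The measured level tended to follow this share. The median of the members' mean counts per library was 135 in members without a unique coding window, 752 in those below 50% and 2543 in those above. Across the 85 members, Spearman's rho between the level in control cortex in CPM per kilobase of coding sequence and the unique share was 0.57, and with the mean count it was 0.60. This is a description over genes that share libraries and depth. The highest levels per coding kilobase in control cortex belonged to Rpl41, which encodes one of the shortest known proteins, with 998 ± 95.5 CPM per kilobase (SD, n = 4), and to Rplp1 of the ribosomal stalk with 840 ± 103. Rpl4 (349 ± 17), Rps15 (346 ± 29.1) and Rps3 (317 ± 23), which lines the mRNA entry channel, followed and lay within about 1 SD of their neighbour in this order. Rpl41 ran against the trend, with 0 of 25 coding windows unique, and its level was divided by a coding length of only 75 bases. The unique share was 40.1% in Rplp1, 80.3% in Rpl4, 57.7% in Rps15 and 92.3% in Rps3. Rpl10l was counted 0 times in all 16 libraries. Rpl3l with 0.45, Rps27rt with 0.551, Rpl39l with 0.597 and Rpl24 with 0.602 CPM per kilobase were the next lowest, and 13 members had fewer than 50 counts on average. Of these, Rpl3l and Rpl39l had 100% and Rpl10l had 88.2% of coding windows unique, whereas Rps27rt and Rpl24, a protein of the large subunit, had none. Counted reads and amounts of mRNA were not told apart in this order.

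**Figure D1:**
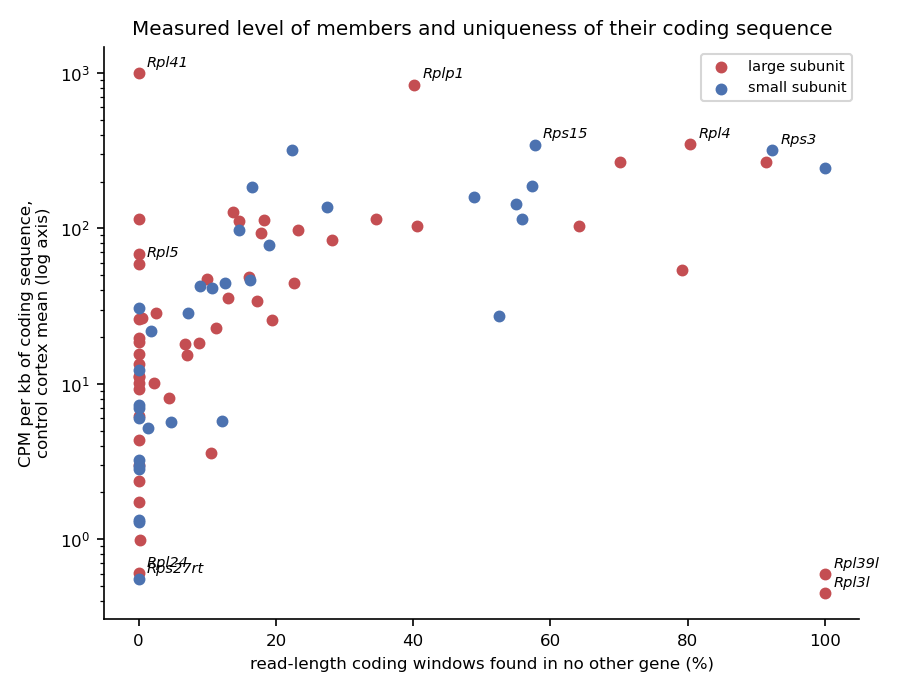
Level of each member in control cortex, in CPM per kilobase of coding sequence on a log axis, against the percent of its coding windows of 51 bases found in no other annotated gene. Points are members, Rpl10l at 0 counts is not drawn, and members without a unique coding window have a median of 8.22 against 144 CPM per kilobase where at least 50% of windows are unique.

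How close members and copies are is shown for 3 members whose counts ran opposite to those of a copy. Each line gives 60 bases of coding sequence of GENCODE transcripts on GRCm38, sense strand, with the single base that differs in capitals. Rps3a1 encodes a small-subunit protein, and 783 of its 792 coding bases (98.9%) are the same in Rps3a3 at chr13:108670603-108671397. Bases 181 to 240 are shown.
Rps3a1: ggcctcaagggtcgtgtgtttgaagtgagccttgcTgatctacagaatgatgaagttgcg
Rps3a3: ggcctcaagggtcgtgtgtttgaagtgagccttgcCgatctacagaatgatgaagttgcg
Rpl3, a large-subunit protein next to the peptidyl transferase centre, shares 1207 of 1209 coding bases (99.8%) with the X-linked Rpl3-ps1 at chrX:13202571-13203780. Bases 22 to 81 are shown.
Rpl3: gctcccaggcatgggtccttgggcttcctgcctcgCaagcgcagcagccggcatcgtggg
Rpl3-ps1: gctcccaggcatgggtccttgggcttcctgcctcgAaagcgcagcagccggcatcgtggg
Rplp0, the base of the stalk that recruits elongation factors, shares 939 of 951 coding bases (98.7%) with Gm8730 at chr8:102864845-102865798. Bases 37 to 96 are shown.
Rplp0: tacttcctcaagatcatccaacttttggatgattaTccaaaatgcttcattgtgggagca
Gm8730: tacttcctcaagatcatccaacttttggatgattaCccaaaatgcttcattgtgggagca

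Some members differed widely between mice, and in the same way in both tissues. For genes with at least 50 counts on average, the range over the 7 mice with both tissues was taken. For each mouse the log2 difference between cortex and striatum was also compared with the mean difference over the mice. In 5 of 72 members (6.94%) the range was at least 1 log2 unit in each tissue and no mouse departed from that mean by more than 0.5. This held for 1.42% of all 14991 such genes. A constant difference between the tissues was thus allowed. These were Rps3a1 (10.6-fold in cortex, 12-fold in striatum), Rpl29 (4.02 and 4), Rpl3 (3.38 and 4.53), Rpl34 (2.54 and 2.67) and Rps2 (2 and 2.55). None of the 5 passed the test for genotype in either tissue.

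Rps3a1 had 0.472 and 0.738 CPM in the cortex of control mice 55 and 58, 8.76 and 8.41 in 63 and 64, and 8.46, 5.63, 6.65 and 7.58 in Trrap-FBΔ mice 57, 59, 60 and 61. In the striatum it had 0.661 CPM in control mouse 58 and 0.638 in 65, against 9.05 and 8.91 in 63 and 64 and 6.37 to 7.16 in Trrap-FBΔ. Its copy Rps3a3 ran the other way, with 27.3 and 26.8 CPM in the cortex of mice 55 and 58 and 23.4 and 21.7 in the striatum of 58 and 65, against 10.6 to 16.9 CPM in the other libraries. Low Rps3a1 and high Rps3a3 thus coincided in the same 4 libraries.

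Rpl3 had 6.32, 5.95, 13.8 and 13.1 CPM in control cortex and 15.4, 13.6, 19.9 and 5.8 in Trrap-FBΔ cortex, in the order of mice given above. In the striatum it had 4.53, 16.2, 12.5 and 19.1 CPM in controls and 11.9, 11.2, 20.9 and 4.98 in Trrap-FBΔ. The X-linked copy Rpl3-ps1 was at 0.0602 to 0.114 CPM in the 3 libraries of mice 60 and 65, where Rpl3 was highest, and at 2.25 to 2.91 CPM in the 5 libraries of mice 55, 58 and 61, where Rpl3 was lowest. Rpl34 had 4.39 CPM in the cortex of mouse 55, 21.2 to 25 CPM in both tissues of mice 58, 59 and 60 and in the striatum of 65, and 42.8 to 63.8 CPM in mice 57, 61, 63 and 64. Strain background and the position of reads were not tested here as sources of these levels.

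**Figure D2:**
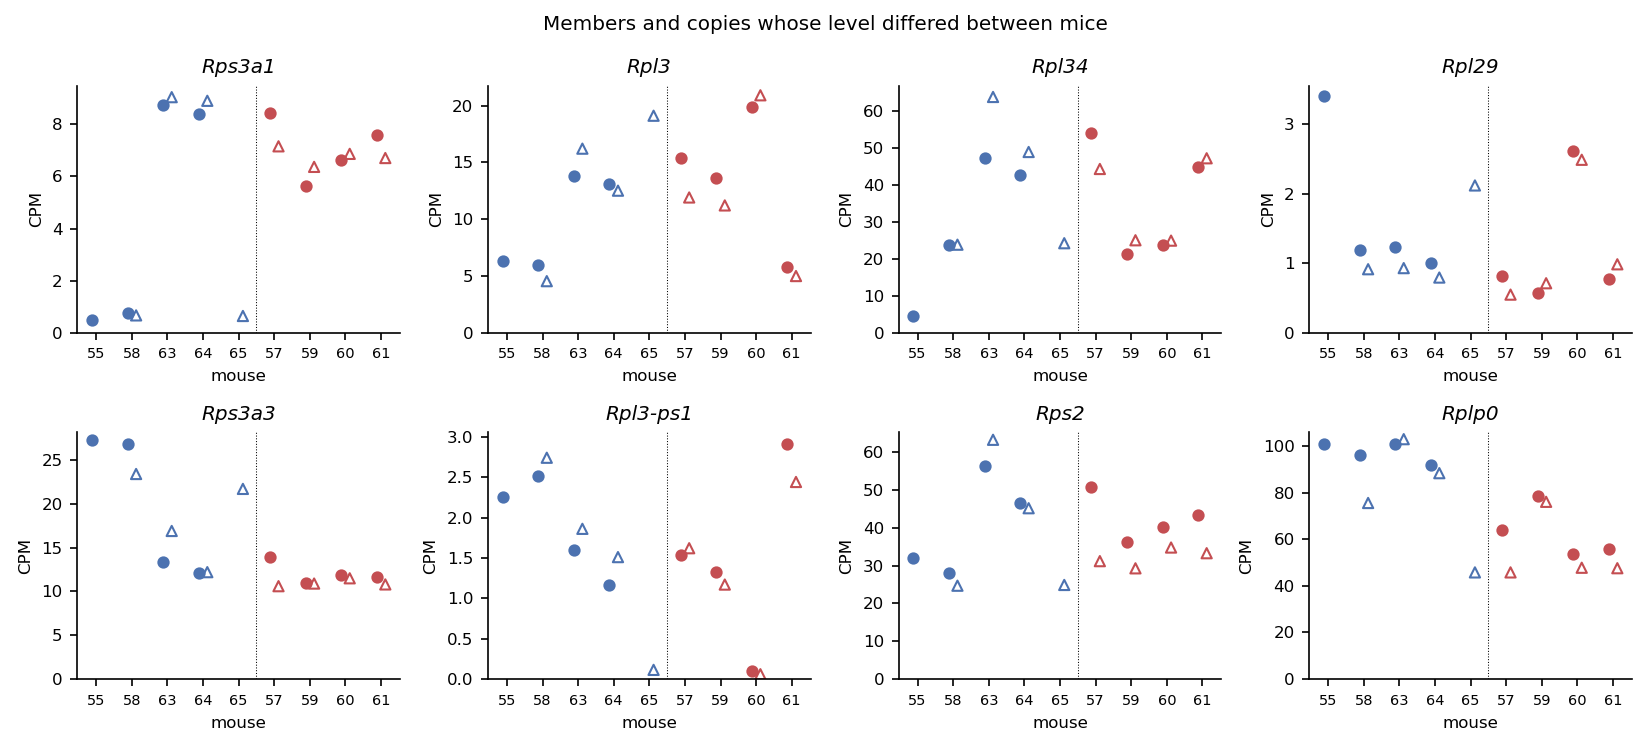
CPM by mouse for Rps3a1, Rpl3, Rpl34, Rpl29, the copies Rps3a3 and Rpl3-ps1, Rps2 and Rplp0. Filled circles are cortex, open triangles striatum, blue control and red Trrap-FBΔ, and the low values of Rps3a1, at 0.472 to 0.738 CPM, are those of mice 55, 58 and 65.

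In the cortex, members were on the whole slightly lower in Trrap-FBΔ, by a median of −0.11 on the log2 scale over the 82 tested members, where the median of all genes tested was 0. Of these members 14 (17.1%) fell and 1 (1.22%), Rpl5, rose at an edgeR adjusted p below 0.05, and 67 did not pass. Among all 18268 genes tested 17.6% fell and 15.7% rose. The share of members that fell depended on the model, with 24.4% against 15.5% of all genes with sex as a covariate, 31.7% against 17.3% with the trend on gene length removed, and 7.32% against 12% with library totals. Libraries of the genotypes did not overlap for 10 members that were lower and 1 that was higher, against 16.4% and 15.7% of all genes. The count of lower members, and the share of all genes that fell, varied with single libraries. The count was 26 without Trrap-FBΔ mouse 57 (31.7%, against 15.8% of all genes) and 6 without mouse 59 (7.32% against 13.6%, with a median of −0.06). It was 8 without mouse 60 (9.76% against 13.1%) and 7 without mouse 61 (8.54% against 15%). Without control mouse 55 or 63 it was 8 (9.76%, against 15.9% and 15.5%).

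Lower members of the large subunit led the list. Rpl10 (ENSMUSG00000008682, chrX:74270812-74273135), which joins the subunit late in its maturation, had 6.32, 5.81, 5.38 and 6.1 CPM in control cortex and 4.66, 3.24, 3.62 and 3.56 in Trrap-FBΔ. The groups did not overlap, and the log2 change was −0.64 ± 0.11 (SE, edgeR adjusted p = 0.0016). Rplp0 (ENSMUSG00000067274, chr5:115559467-115563727) had 101, 96.4, 101 and 92.1 CPM against 64.1, 78.4, 53.9 and 55.8. All Trrap-FBΔ libraries lay below all controls, with a log2 change of −0.63 ± 0.10 (adjusted p = 0.00079). Its copy Gm8730 had 9.41, 8.07, 8.97 and 7.18 CPM in the same controls and 17.8, 6.56, 14.1 and 15.4 in Trrap-FBΔ, so mouse 59, with the highest Rplp0 of its group, had the lowest Gm8730.

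Rpl12 (ENSMUSG00000038900, chr2:32961559-32965345), another protein at the base of the stalk, had 7.59, 8.03, 8.25 and 6.77 CPM in controls and 5.95, 4.5, 4.85 and 4.77 in Trrap-FBΔ (log2 change −0.61 ± 0.10, adjusted p = 0.0011). Rpl13a (ENSMUSG00000074129, chr7:45125558-45128761), also known for silencing of inflammatory mRNAs, had 17.1, 17.6, 17.9 and 16.5 CPM against 13.7, 9.61, 11.2 and 11.5 (−0.58 ± 0.09, adjusted p = 0.00064). Rpl10a (ENSMUSG00000037805, chr17:28328471-28331033), which forms the stalk at the exit of tRNA, had 17.4, 16.8, 17.7 and 17 CPM against 14.2, 11.3, 12.5 and 13.7 (−0.41 ± 0.07, adjusted p = 0.0015). In none of these did a Trrap-FBΔ library reach the lowest control. Of coding windows, 0 of 592 were unique in Rpl10, 0 of 445 in Rpl12 and 14 of 559 in Rpl13a. In Rpl10a 3 of 598 were unique, and in Rplp0 366 of 901. Whether the counts of these 5 members came from mature mRNA was not tested. The other lower members changed less, from −0.20 for Rpl15 to −0.36 for Rpl41 on the log2 scale, and included Rpl21, Rpl23, Rpl27a, Rps4x, Rps18 and Rps24. Of them, Rpl41 (74, 70.4, 85.2 and 69.7 CPM in controls, 49.1 to 77 in Trrap-FBΔ) overlapped between the groups and failed the test without any of Trrap-FBΔ mice 59, 60 and 61 or control mice 55 and 63, and Rps4x (−0.28, adjusted p = 0.02) failed without Trrap-FBΔ mouse 59 or 60 or control mouse 63.

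Rpl5 (ENSMUSG00000058558, chr5:107900502-107909005), which with Rpl11 binds the p53 regulator Mdm2, had 53.1, 52.8, 56 and 49.2 CPM in control cortex and 77.6, 60.7, 70.5 and 65.6 in Trrap-FBΔ. It was higher in every Trrap-FBΔ library, with a log2 change of 0.38 ± 0.07 (adjusted p = 0.0019). None of its 841 coding windows was unique, 2007 windows elsewhere in its transcripts were, 3 snoRNA genes lie inside it, and 45.3% of the windows of its main transcript also occur in transcripts of Fam69a. Whether the Rpl5 counts came from mature mRNA was not tested. Rpl11, its partner, had 3.63, 3.38, 3.18 and 3.14 CPM in controls and 3.44, 2.17, 3.36 and 3.41 in Trrap-FBΔ (−0.10 ± 0.15, adjusted p = 0.64).

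In the striatum the members were lower by a median of −0.23 on the log2 scale, against −0.01 for all genes tested, and 75 of 82 had a log2 change below 0. The test called 17 (20.7%) lower and 1 (1.22%), again Rpl5, higher, and 64 did not pass, whereas 15.8% of all 18872 genes fell and 14.4% rose. With library totals the shares that fell were 8.54% of members and 9.79% of all genes, and with sex as a covariate 26.8% and 12%. Libraries did not overlap for 17 lower members and 1 higher member, against 15.5% and 16% of all genes. The number lower was 8 without Trrap-FBΔ mouse 57 (9.76%, against 11.8% of all genes) and 9 without mouse 59 (11% against 12.2%). It was 11 without mouse 60 (13.6% against 12.4%) or control mouse 64 (13.4% against 13.2%). Without control mouse 63, the library with the most member counts, 16 were lower (19.5% against 16%) and the median was −0.11.

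Rpl10 had 5.44, 5.93, 5.61 and 5.19 CPM in control striatum and 3.44, 3.07, 3.61 and 3.82 in Trrap-FBΔ, a log2 change of −0.67 ± 0.10 (edgeR adjusted p = 0.00089). Rpl13a had 13.5, 18.7, 14.6 and 13.7 CPM against 9.15, 9.44, 9.5 and 10.3 (−0.66 ± 0.11, adjusted p = 0.0016). Rpl12 had 5.51, 7, 6.27 and 5.44 CPM against 3.96, 4.59, 4.38 and 4.13 (−0.51 ± 0.10, adjusted p = 0.0053). The groups stood apart in all 3, as they did for Rpl10a at 15.1, 17.4, 16.7 and 14 CPM against 12.1, 11.7, 12.1 and 12.6 (−0.39 ± 0.08, adjusted p = 0.0045).

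Rpl39 (chrX:37082520-37085402), a very small protein of the exit tunnel, had 12.9, 21.4, 16.9 and 15.9 CPM in control striatum and 10.7, 11, 12.3 and 10.7 in Trrap-FBΔ (−0.59 ± 0.13, adjusted p = 0.0081), with no overlap. It missed the test in the cortex, with 20.3, 14.2, 17.6 and 16 CPM against 16.4, 10.5, 13 and 13.8 (−0.34 ± 0.13, adjusted p = 0.069). Rps28 of the small subunit had 5.35, 7.83, 6.59 and 4.69 CPM against 3.83, 4.47, 3.86 and 5.26 in the striatum. Its groups overlapped, and its log2 change of −0.50 ± 0.17 (adjusted p = 0.046) failed without any of Trrap-FBΔ mice 57, 59 and 60 or control mice 63 and 64. Rps6, the target of the S6 kinases downstream of mTOR, had 2.05, 2.43, 1.88 and 1.71 CPM against 1.47, 1.52, 1.49 and 1.61. This call (−0.41 ± 0.13, adjusted p = 0.043) was lost on leaving out any library but that of control mouse 65. Of coding windows, 0 of 157 were unique in Rps28, 0 of 697 in Rps6 and 14.6% in Rpl39. Rps3 and Rps15, with 92.3% and 57.7% of coding windows unique, were both lower by −0.30 (adjusted p = 0.043 and 0.036), and each call was lost without any 1 of the 4 Trrap-FBΔ libraries or control mouse 64.

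Rpl5 had 45.7, 58.6, 52.1 and 54.6 CPM in control striatum and 61.8, 62.1, 74.2 and 63.5 in Trrap-FBΔ, again with no overlap (0.31 ± 0.09, adjusted p = 0.022). Without Trrap-FBΔ mouse 60 the log2 change was 0.24 and the adjusted p 0.057, within a range of 0.0048 to 0.54 over its alternatives. Rplp0, lower in cortex, did not pass in the striatum. It had 75.6, 103, 88.4 and 45.8 CPM in controls and 45.8, 76.1, 47.8 and 47.6 in Trrap-FBΔ (−0.53 ± 0.23, adjusted p = 0.11). Control mouse 65, at the level of 3 Trrap-FBΔ libraries, had 13.8 CPM of Gm8730 and Trrap-FBΔ mouse 59 had 6.01, whereas the other controls had 6.77 to 9.6 and the other Trrap-FBΔ libraries 12.6 to 13.9. Rplp0 passed without mouse 65 (−0.72, adjusted p = 0.017) and without mouse 59 (−0.74, adjusted p = 0.041), within a range of 0.017 to 0.39 over its alternatives.

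**Figure D3:**
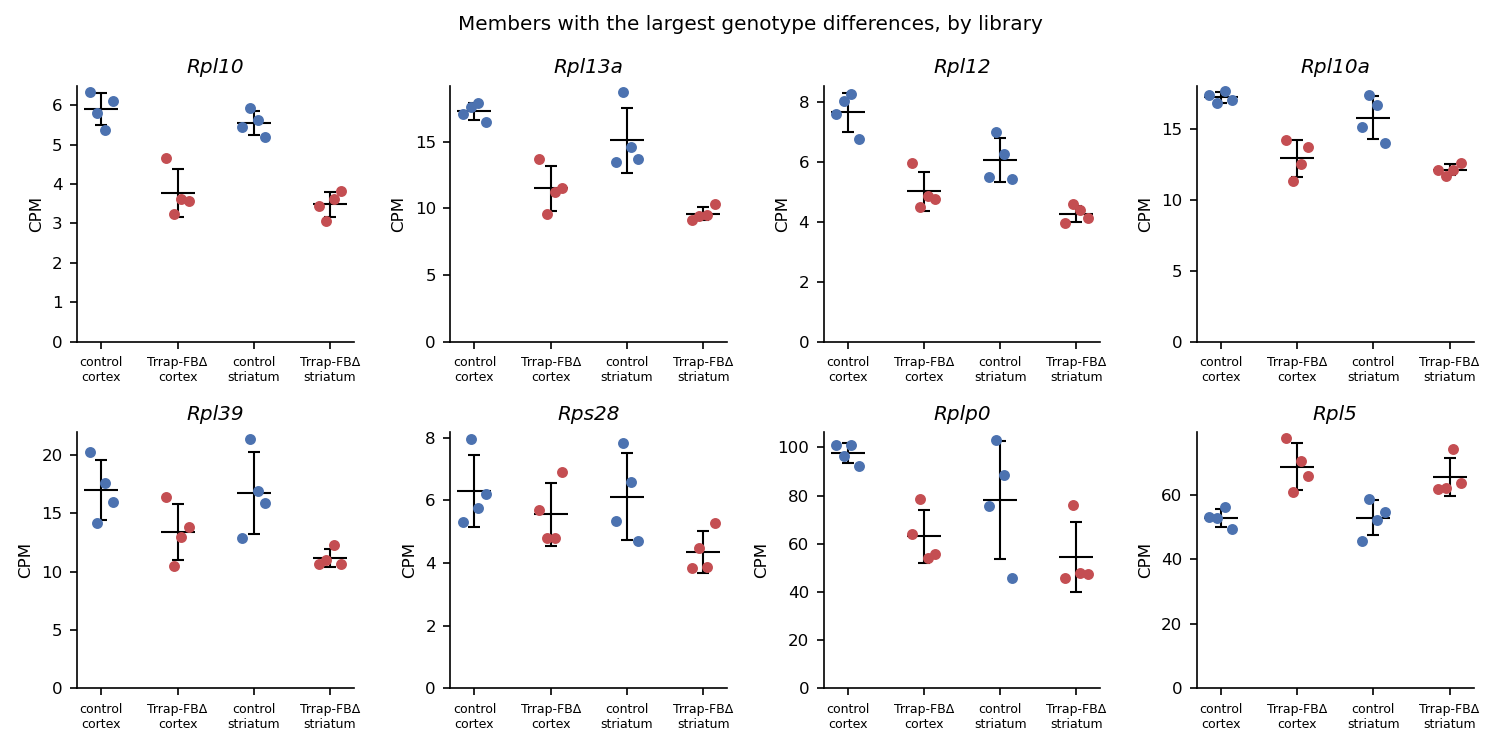
CPM of Rpl10, Rpl13a, Rpl12, Rpl10a, Rpl39, Rps28, Rplp0 and Rpl5 in the 4 groups. Points are libraries, dashes and bars the mean ± SD of 4, and Rpl10 in control cortex (5.38 to 6.32 CPM) lies above all Trrap-FBΔ cortex libraries (3.24 to 4.66), with the opposite order for Rpl5.

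Of the members tested in both tissues, 9 were lower in both (9 of the 14 of cortex and of the 17 of striatum), 1 was higher in both, 5 were lower in the cortex only and 8 in the striatum only. Of all 17938 genes tested in both, 10.5% were lower in both, against 11% of members, and 8.47% higher in both, against 1.22%. Log2 changes were below 0 in both tissues for 57 members (69.5%) and for 40% of all genes. Both tissues of Trrap-FBΔ came from the same 4 mice and 3 control mice were shared, so the tissues are not independent. The interaction of tissue and genotype, which tests whether the changes differ, called 0 of 82 members higher and 0 lower, against 0.195% and 0.242% of all 19438 genes. At an unadjusted p below 0.05 there were 2 members (2.44%) in edgeR, against 12.1% of all genes, 1 in DESeq2 and 11 in edgeR with the mouse as a block. The share of all genes at this p was taken for the first of these fits only, so the other counts cannot be set against it. The smallest p-values were those of Rpl22, an RNA-binding protein that the ribosome can do without (difference −0.25 ± 0.11, adjusted p = 0.38), and Rps6 (−0.50 ± 0.23, adjusted p = 0.40). Rpl37a (−0.39 ± 0.20), Rpl22l1 (−0.26 ± 0.14) and Rpl30 (−0.32 ± 0.18) followed, with adjusted p of 0.46, 0.49 and 0.50. Calls in 1 tissue only are therefore not shown to differ between the tissues.

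**Figure D4:**
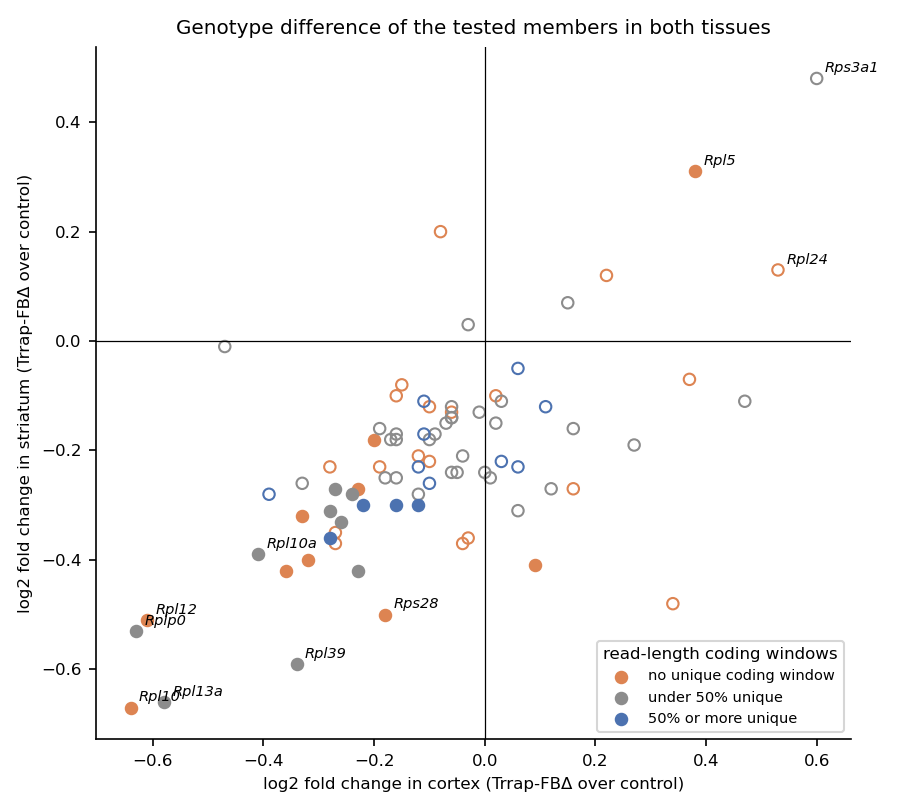
Log2 fold change of Trrap-FBΔ against control in cortex (x) and striatum (y) for the 82 tested members. Filled points passed the test in at least 1 tissue, colours give the share of unique coding windows, and 57 points lie below 0 on both axes.

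Calls in the classes of unique windows were as follows, where 17.6% of all genes tested fell and 15.7% rose in cortex, and 15.8% fell and 14.4% rose in striatum. The shares that fell in cortex and striatum were 20.7% and 24.1% with no unique coding window. They were 17.5% and 17.5% below 50%, and 7.69% and 23.1% with at least 50%. Of 29 tested members with no unique coding window, 6 fell and 1 rose in cortex and 7 fell and 1 rose in striatum. Of 40 members below 50%, 7 fell in each tissue. Of 13 members with at least 50%, 1 fell in cortex and 3 in striatum, the latter Rps3, Rps15 and Rpl32. In the striatum all 13 had a log2 change below 0, with a median of −0.23, and in the cortex 9 of 13 had, with a median of −0.11. These medians equal those over all members. Members with a snoRNA gene inside numbered 30. Of these 7 (23.3%) fell and 1 rose in cortex and 8 (26.7%) fell and 1 rose in striatum, against 7 (13.5%) and 9 (17.3%) lower of 52 without one. No test compared the classes with each other or with all genes.

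All 4 X-linked members, a grouping made after their values were seen, were lower in the striatum. Rps4x had 29 to 38.3 CPM in control striatum and 24.7 to 27.8 in Trrap-FBΔ (−0.31, edgeR adjusted p = 0.026), and Rpl36a had 3.5 to 4.19 CPM against 2.79 to 3.29 (−0.32, adjusted p = 0.036). The sexes were unequal, since 3 of 4 Trrap-FBΔ mice but 1 of 4 control mice of the striatum were female. With sex as a covariate Rpl10 (−0.69, adjusted p = 0.0045), Rpl39 (−0.66, 0.012) and Rps4x (−0.36, 0.029) passed, and Rpl36a did not (−0.29, 0.12). The ranges of adjusted p over all alternatives were 3.8e-07 to 0.0083, 0.0002 to 0.062, 0.0077 to 0.52 and 0.036 to 0.52. Rps4x failed without Trrap-FBΔ mouse 57 or 59 or control mouse 64, and Rpl36a without any of Trrap-FBΔ mice 57, 59 and 60 and control mice 58, 64 and 65.

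Summed over members, ribosomal protein genes took 0.332% ± 0.0191 of normalised counts in control cortex and 0.302% ± 0.0338 in Trrap-FBΔ cortex (SD, n = 4), and single libraries overlapped, since mouse 57 had 0.349%. In the striatum they took 0.326% ± 0.0507 in controls, with mouse 63 at 0.397%, and 0.282% ± 0.0067 in Trrap-FBΔ. These libraries overlapped too, with control mouse 58 at 0.288% and Trrap-FBΔ mouse 60 at 0.289%. Pseudogenes that share windows with members had 182 ± 17.8 CPM in all in control cortex, 164 ± 18 in Trrap-FBΔ cortex, 188 ± 26.9 in control striatum and 161 ± 4.65 in Trrap-FBΔ striatum, and the libraries of the genotypes overlapped in cortex (162 to 203 against 142 to 185 CPM) but not in striatum (169 to 228 against 157 to 167). No test was run on these sums, since the members were chosen with results known.

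**Figure D5:**
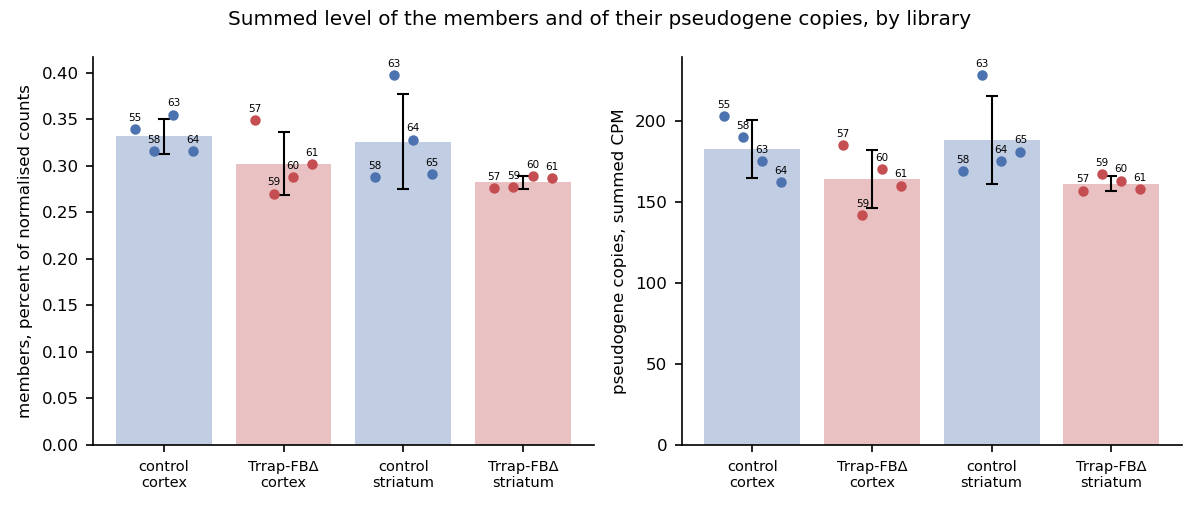
Share of normalised counts taken by the 85 members, in percent, by group. Bars are means ± SD of 4 libraries and points are libraries with their mouse number, with a mean of 0.332% in control cortex and 0.282% in Trrap-FBΔ striatum.

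Few members differed between the tissues in controls. In controls 0 of 81 members were higher and 2 (2.47%) lower in striatum than in cortex, against 20.3% and 20.1% of all 18284 genes, with a median log2 difference of 0.01. These were Rpl12 (−0.34, edgeR adjusted p = 0.025) and Rpl22, at 101, 101, 99.8 and 106 CPM in cortex and 79.1, 99.2, 91.4 and 73.2 in striatum (−0.26, adjusted p = 0.032). Neither call was stable. With the mouse as a block 4 members were higher and 0 lower, against 3135 and 3293 of all 18284 genes. In that fit Rpl12 (−0.29, adjusted p = 0.083) and Rpl22 (−0.19, adjusted p = 0.081) did not pass, within ranges of 0.0081 to 0.31 and 0.0024 to 0.66 over their alternatives. The 4 were Rpl32, Rpl35a, Rpl22l1 (0.28, adjusted p = 0.047) and Rps27l (0.39, adjusted p = 0.016), with ranges of 0.0091 to 0.73 and 0.0071 to 0.54 for the latter pair. Counts scaled to library totals gave 3 higher and 0 lower, against 5417 and 2454 of all 18284 genes. Leaving out a single library gave 0 to 8 lower members, with 8 without the striatum of mouse 63, 0 without the striatum of mouse 58 or 65 or the cortex of mouse 63, and 1 without the cortex of mouse 55, 58 or 64. In these fits 16.5% to 20.3% of all genes were lower. Markers did not all separate the tissues. Of 9 markers of striatal projection neurons 1 was higher and 1 lower in control striatum, and of 8 of excitatory neurons 1 and 6. Those of the oligodendrocyte lineage were higher in 10 of 10. Ppp1r1b, of the first list, had 51.4, 179, 184 and 58.2 CPM in control cortex and 19.4, 97.2, 301 and 89.2 in control striatum (0.09, edgeR adjusted p = 0.93). How cleanly the tissues were dissected was not tested.

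In Trrap-FBΔ mice 1 of 82 members (1.22%) was higher and 12 (14.6%) were lower in striatum than in cortex, against 27.4% of all 18872 genes in each direction, with a median of −0.09. Rps6 had 3.13, 2.58, 2.31 and 2.3 CPM in Trrap-FBΔ cortex and 1.47, 1.52, 1.49 and 1.61 in striatum (−0.77 ± 0.13, edgeR adjusted p = 0.00024). Rpl22 had 121, 96.5, 94 and 105 CPM against 75.8, 73.1, 70.4 and 75.3 (−0.51 ± 0.06, adjusted p = 2.8e-05). Rps2, a protein of the mRNA entry channel, had 50.8, 36.2, 40.3 and 43.4 CPM against 31.2, 29.3, 34.8 and 33.3 (−0.42 ± 0.09, adjusted p = 0.0015), and Rpl7a had 16.3, 13.2, 13.1 and 16.1 CPM against 11.7, 10.9, 12.3 and 12.6 (−0.31 ± 0.08, adjusted p = 0.0067). These 4 were lower in the striatum of every mouse, without overlap. Rps28 also passed (−0.37 ± 0.14, adjusted p = 0.039), with overlapping libraries, but not without the cortex of mouse 57 or 61 or the striatum of mouse 57, 59 or 60. Rps15a was the higher member, with 67.5 to 74.6 CPM in cortex and 76.1 to 82.1 in striatum (0.15 ± 0.04, adjusted p = 0.009). The mouse as a block gave 1 higher and 18 lower members, and 22% of members were lower against 28.5% of all genes. Among the lower was Rplp0 (−0.24, adjusted p = 0.0089), which did not pass without the block (adjusted p = 0.25, range 0.007 to 0.69). The lower members numbered 25 without the cortex of mouse 59 (30.5%, against 26.1% of all genes). They numbered 6 without the cortex or the striatum of mouse 57 (7.32%, against 26.4% and 25.5%). Upper-quartile scaling gave 3 higher and 6 lower, library totals 3 and 3, with 21.9% and 18.1% of all genes lower.

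Rpl10l, Rpl39l and Rpl3l, paralogs known from other tissues, had few or 0 counts here. Rps27rt and Rpl36al had 0% of coding windows unique, so their low counts do not show that their mRNA was rare. Rpl10l and Rpl39l, known from testis, and Rps27rt could not be tested, at 0 CPM and means of 0.0914 and 0.139 CPM in control cortex. Rpl3l, known from muscle, had 0.399 to 0.691 CPM in control cortex and 0.406 to 0.44 in Trrap-FBΔ cortex (−0.39, edgeR adjusted p = 0.19), beside its partner Rpl3 at 5.95 to 13.8 and 5.8 to 19.9 CPM. Rpl36al had 0.36 to 0.714 CPM in control cortex, and its change did not pass in either tissue (adjusted p = 0.56 and 0.67). Rpl22l1, which Rpl22 protein is known to repress, had 16.5 to 19 CPM in control cortex and 16.2 to 20.1 in Trrap-FBΔ, and Rpl7l1, which acts in ribosome assembly, had 38.2 to 43.2 and 37 to 45.9. Rps27l, a p53 target, had 5.97 to 7.55 and 6.37 to 7.84 CPM, and Rps27 had 1.21 to 1.78 and 1.35 to 2.37. None of these passed the test for genotype in either tissue.

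Of the proteins with a second role, Rpsa, also a laminin receptor, had 4.1 to 5.38 CPM in control cortex and 3.4 to 5.11 in Trrap-FBΔ (−0.10, edgeR adjusted p = 0.60). Rps27a, made as a fusion with ubiquitin, had 2.87 to 3.73 and 2.8 to 4.18 CPM (0.02, adjusted p = 0.94). The stalk proteins Rplp1 and Rplp2, which bind Rplp0 as dimers, did not pass for genotype in either tissue. Rplp1 had 258 to 333 CPM in control and 220 to 303 in Trrap-FBΔ cortex (−0.16, adjusted p = 0.24), and Rplp2 had 35.6 to 45 and 31.9 to 44.9 CPM (−0.01, adjusted p = 0.95). Both were lower in Trrap-FBΔ striatum than in Trrap-FBΔ cortex (−0.27, adjusted p = 0.012, and −0.23, adjusted p = 0.041). The call of Rplp1 was lost with library totals (adjusted p = 0.14), in the fit of all 16 libraries (0.07) and against a fold of 1.2 (0.48), within a range of 0.0018 to 0.48. That of Rplp2 was kept in 11 of 19 alternatives (range 0.003 to 0.71) and lost, among others, without the cortex of mouse 57 or 61 or the striatum of mouse 57 or 59.

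Other genes of ribosome production and translation, in lists also set with earlier results known, moved in both directions. Shares of all genes tested, for these lists and those below, were 15.7% higher and 17.6% lower in cortex. In striatum they were 14.4% higher and 15.8% lower. No test compared a list with these shares. Of 77 tested genes of mitochondrial ribosomal proteins 16 rose and 5 fell in cortex, and 11 rose and 5 fell in striatum. Of 80 genes of ribosome biogenesis 7 rose and 16 fell in cortex, and 12 rose and 15 fell in striatum, and of 14 genes of RNA polymerase I 1 rose and 3 fell, and 1 rose and 4 fell. Translation factors with TOP mRNAs numbered 17, with 0 higher and 6 lower in cortex and 0 higher and 4 lower in striatum. Eef1g, a subunit of an elongation factor of translation, had 42.8, 37.7, 41.8 and 37 CPM in control cortex and 30.4, 25.4, 25.6 and 29.4 in Trrap-FBΔ (−0.52 ± 0.07, edgeR adjusted p = 0.0004). Of 34 initiation factors 4 rose and 7 fell in cortex, and 4 rose and 8 fell in striatum. Of 16 regulators of mTOR and TOP mRNAs 2 rose and 3 fell in cortex and 3 rose and 3 fell in striatum, among them Myc, an activator of ribosomal protein genes, with 19.6, 17.5, 18.3 and 17.1 CPM against 12.1, 9.31, 10.6 and 12.6 in cortex (−0.70 ± 0.09, adjusted p = 0.00023).

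Of 12 host genes of snoRNAs 2 rose and 3 fell in cortex, and 2 rose and 6 fell in striatum. Of 13 assembly chaperones and quality control genes 2 rose and 1 fell in cortex and 1 rose and 1 fell in striatum, and of 83 genes of oxidative phosphorylation 5 rose and 8 fell, and 1 rose and 13 fell. Rack1, a ribosomal protein under another symbol, did not pass in cortex and fell in striatum, from 186 to 255 CPM in controls to 171 to 181 in Trrap-FBΔ (−0.29, edgeR adjusted p = 0.035). Of 9 housekeeping genes 2 rose and 3 fell in cortex and 2 rose and 5 fell in striatum.

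Markers of other cells moved with the genotype beside the members. Among all genes tested 17.6% fell and 15.7% rose in cortex, and 15.8% fell and 14.4% rose in striatum. Markers of the oligodendrocyte lineage fell in 10 of 10 in cortex and 3 of 10 in striatum, with a summed level of 1970 to 3250 CPM in control and 1510 to 2180 in Trrap-FBΔ cortex. Those of microglia fell in 8 and 6 of 8 (372 to 419 against 267 to 346 CPM in cortex, 303 to 372 against 258 to 274 in striatum). Those of endothelial and mural cells fell in 8 and 3 of 8 (408 to 494 against 311 to 380 CPM in cortex), and those of proliferating cells in 6 and 7 of 8 (86.6 to 96.2 against 58.5 to 67). Of 12 markers of immature neurons 8 fell and 1 rose in cortex and 7 fell in striatum, with sums of 4800 to 6260 against 2550 to 3230 CPM in cortex and 3940 to 4380 against 2500 to 2800 in striatum. Markers of excitatory neurons fell in 2 of 8 in cortex, at 1540 to 1950 against 1720 to 1830 CPM, and in 4 of 8 in striatum, and of 8 astrocyte markers 2 rose and 2 fell in cortex and 2 rose and 1 fell in striatum. Of 8 interneuron markers 1 rose in cortex and 1 rose and 1 fell in striatum, and 0 of 9 markers of striatal projection neurons, 0 of 5 of blood and 0 of 5 of choroid plexus and ependyma passed in either tissue. No marker of these lists was at 0 in all libraries. Their part in the members' changes was not tested.

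The promoters of members were read from RefSeq on GRCm38.p6, which gave 65 of the 85 members among 27025 genes. Within 250 bases before the annotated start, the GC box GGGCGG, the motif of Sp1, stood on either strand in 31 members (47.7%) and in 32.9% of all promoters. The letters CCGGAAG, read by factors of the ETS family, stood in 19 members (29.2%) and in 7.05% of all promoters, and CCAAT in 18 (27.7%) and 34.5%. A start of C followed by at least 4 pyrimidines, as in TOP mRNAs, was found in 13 members (20%) and in 2.49% of all genes. This match was made at the exact base of the first RefSeq start listed per gene. A start listed a few bases off would be missed, so the share does not count the members with a TOP mRNA. Of 19 members that were lower in cortex or striatum, 11 (57.9%) had a GC box, as had 20 of the 46 others (43.5%). For CCAAT the shares were 42.1% and 21.7%, for CCGGAAG 26.3% and 30.4%, and for the pyrimidine start 15.8% and 21.7%. These are matches of letters only.

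The 100 bases before the annotated start are shown for lower members with a GC box, Rpl12 at chr2:32961612-32961711 on the plus strand and Rpl13a at chr7:45128746-45128845 on the minus strand, and for the higher member, Rpl5 at chr5:107900428-107900527 on the plus strand. The starts used do not all match the gene bounds given above. The stretch of Rpl12, with its GC box, lies wholly inside these bounds, and the last bases of those of Rpl13a and Rpl5 do too. The bases shown are therefore not all upstream of the gene. Capitals mark the GC box on either strand. Within 250 bases Rpl12 had 1, Rpl13a had 2 and Rpl5 had 0. The lower members Rpl10, Rplp0 and Rpl10a had 1 each, and the lower members Rpl39 and Rps28 had 0, like Rpl5.
Rpl12: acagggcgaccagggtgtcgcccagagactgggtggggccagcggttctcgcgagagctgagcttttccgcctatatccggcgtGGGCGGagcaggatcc
Rpl13a: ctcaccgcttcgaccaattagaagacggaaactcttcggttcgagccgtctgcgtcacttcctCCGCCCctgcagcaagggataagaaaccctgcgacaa
Rpl5: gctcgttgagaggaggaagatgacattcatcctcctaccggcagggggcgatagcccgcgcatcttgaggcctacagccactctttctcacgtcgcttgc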

How the data were processed

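Strand-specific poly(A) libraries were sequenced as single-end reads of 51 bases. Per the labels, reads were converted with bcl2fastq 1.8.4, aligned to GRCm38 with STAR 2.5.4b and counted per Ensembl gene with featureCounts 1.5.0. The authors deposited raw counts of uniquely mapped reads for 16 libraries, with no normalization, and 0 columns of samples were left unused. Columns were matched to mice and groups by their labels.

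Genes kept by filterByExpr were normalised by TMM and tested by quasi-likelihood in edgeR 4.0.16 (R 4.3.3), with Benjamini-Hochberg adjustment over all genes tested and a threshold of 0.05, separately for genotype in each tissue and for tissue in each genotype, and with an interaction term over all 16 libraries. CPM are TMM-scaled. Within a tissue, ranges, SDs and p-values reflect mice, and counting error alone sets the floor of 3 counts. The main fits for tissue and for the interaction treated the libraries of a mouse as independent. Their p-values therefore do not take the mouse as the unit, and the mouse as a block was run as an alternative. DESeq2 1.42.0 and other alternatives were run. Uniqueness was computed against GENCODE transcripts, because no genome sequence was used here, so copies outside the annotation were missed. On simulated counts of the cortex comparison over 18268 genes, 81% of 200 genes changed by 1 log2 unit were recovered and 8.99% of calls were false, and for the interaction over 19438 genes 68% and 3.55%. Log2 changes of the members were smaller, from −0.64 to 0.6 in cortex and −0.67 to 0.48 in striatum. These rates therefore do not give the power for the members.

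Members and lists were chosen with earlier results of these data known. Members named are the 5 largest changes in each direction and comparison among those past the threshold with at least 50 counts, paralog pairs, the 5 highest and 5 lowest levels, the 5 smallest interaction p-values, and Rplp0, Rplp1, Rplp2, Rpsa, Rps6, Rpl5, Rpl11 and Rps27a, besides Trrap and up to 4 genes per list by cortex p. Members of the uniqueness, copy and mouse-level results, the X-linked members and the others given by name were chosen after their values were seen.

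Libraries of one mouse pair the tissues. Deviations from group means correlated with r of 0.121 to 0.365 in the 7 pairs of a mouse (median 0.24) and −0.265 to 0.13 in 25 pairs of different mice. No 2 libraries of a group agreed within sampling noise (chi-square per degree of freedom 8.34 to 44.7 in 24 pairs). Results of a few genes are not reported here.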

Additional observations from a re-analysis of the deposited data

Results flagged for a closer look

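In 8 of 132 groups of 4 libraries examined for the members named, 1 library lay farther from the others than Dixon's 95% limit, where chance gives about 1 in 20. In Trrap-FBΔ cortex this was Rpl11 in mouse 59, at 2.17 CPM. In Trrap-FBΔ striatum it was Rpl39 (12.3 CPM) and Rpl5 (74.2 CPM) in mouse 60, Rplp0 (76.1 CPM) and Rpl7l1 (38.6 CPM) in mouse 59, and Rps15 in mouse 57 (119 CPM). In controls it was Rpl7l1 in the cortex of mouse 63 (43.2 CPM) and Rpsa in the striatum of mouse 63 (5.83 CPM).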

How the results depend on the processing

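In the cortex the members lower in Trrap-FBΔ numbered 6 with library totals (7.32% of members, 12% of all genes), 26 with the trend on gene length removed (31.7% and 17.3%), 20 with sex as a covariate (24.4% and 15.5%) and 4 in the test against a fold change of 1.2 (4.88% and 4.01%, 0 members higher), and 6 to 26 on leaving out a library, with 1 higher throughout. In the striatum they numbered 7 with library totals (8.54% and 9.79%), 25 with the length trend removed (30.5% and 15.9%), 23 with all 16 libraries (28% and 17.1%), 22 with sex as a covariate (26.8% and 12%) and 2 against a fold of 1.2 (2.44% and 3.79%, 0 higher), and 8 to 24 on leaving out a library, with 0 to 1 higher. Counting members with at least 50% of coding windows unique, an alternative chosen after seeing the data, gave 0 higher in both tissues, with 1 lower in cortex and 3 in striatum. Between the tissues of controls, members higher numbered 3 with library totals, 7 with sex as a covariate and 4 with the mouse as a replicate block, and 0 to 1 on leaving out a library. With library totals, the sex covariate and the block, 5417, 3751 and 3135 of all 18284 genes were higher. Members lower numbered 0 with upper-quartile scaling, library totals, the fold of 1.2 and the replicate block (16.3%, 13.4%, 8.55% and 18% of all genes). They numbered 6 with the length trend removed (7.41%, against 20.9% of all genes), 1 among unique members (7.69% against 20.1%) and 0 to 8 on leaving out a library. Between the tissues of Trrap-FBΔ, members lower numbered 6 with upper-quartile scaling (7.32%, against 21.9% of all genes) and 3 with library totals or the fold of 1.2 (3.66%, against 18.1% and 13.5%). They numbered 22 with the length trend removed (26.8% against 28.7%), 7 with all 16 libraries (8.54% against 25.9%), 2 among unique members (15.4% against 27.4%) and 6 to 25 on leaving out a library. Members higher numbered 3 with upper-quartile scaling and with library totals, where 6318 and 7411 of all 18872 genes were higher. They numbered 0 with the fold of 1.2, 0 among unique members and 1 to 2 on leaving out a library. The replicate block gave 1 higher and 18 lower there (22% lower, against 28.5% of all genes) and 0 for the interaction, which stayed at 0 in every alternative. Library totals moved the median of all genes to 0.07 in cortex and 0.08 in striatum and the members' medians to −0.04 and −0.15, a shift that such scaling gives to members and other genes alike. The cause of these changes was not tested. On leaving out a library, 13.1% to 15.9% of all genes were lower in Trrap-FBΔ cortex and 11.8% to 16% in Trrap-FBΔ striatum. Between the tissues these shares were 16.5% to 20.3% in controls and 24.8% to 26.4% in Trrap-FBΔ. Among single genes 3296 values kept their direction and side of the threshold, 129 lost and 72 gained the call, and 0 reversed. Depth limits the 13 members under 50 counts.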
